A study of Mus musculus with 19 samples.

Results

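Genes of the oxygen-sensing pathway were followed across whole mouse kidneys: the hypoxia-inducible factors (HIFs), the enzymes that mark them for destruction and a pair of their target genes. The 10 genes were chosen by symbol from the 55536 genes of the count matrix, and all 10 had enough reads to be tested. They were Hif1a, Epas1 and Hif3a, which encode the oxygen-regulated alpha subunits, Arnt, the shared partner, Vhl, the ubiquitin ligase subunit, the prolyl hydroxylase genes Egln1, Egln2 and Egln3, and the targets Bnip3 and Ankrd37. RNA was sequenced from 8 obstructed kidneys given zalfermin, 7 obstructed kidneys given vehicle and 4 healthy kidneys. The design names the injury UUO, usually short for unilateral ureteral obstruction, in which a tied ureter leads to kidney fibrosis. Zalfermin is, by the series title, a long-acting FGF21 analogue. For the 15 obstructed kidneys the labels list MASH as the condition. They code the drug as 0194-0499 and call the healthy kidneys untreated, where the design calls them vehicle-treated. The sources used here give no strain, sex, age, dose or duration. Whether each library is a separate animal is not stated, and p-values therefore reflect only the spread among these libraries, which may be technical.

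HIF activity is set mainly at the protein. When oxygen is available, the prolyl hydroxylases modify the alpha subunits, the VHL protein binds the modified form and the proteasome destroys it. When oxygen is scarce the alpha subunits persist, pair with ARNT and bind hypoxia response elements near genes of glycolysis, blood vessel growth, iron handling and mitophagy, among them EGLN3 and BNIP3. In the kidney, HIF1A is known mainly from tubule cells and EPAS1 from endothelial and interstitial cells. RNA levels of the pathway genes are what was measured here, and neither HIF protein nor its activity was.

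Libraries held 12209122 to 14844103 counts. Mitochondrial genes took 2.95 to 4.25% of the counts in zalfermin libraries, 1.10 to 4.21% in vehicle libraries and 8.77 to 10.2% in healthy libraries. Vehicle replicate 6 stood apart from its group: it had the lowest mitochondrial share and the fewest detected genes, 19788 against 21374 to 22216 in the other vehicle libraries. Where it changed a call or an order of the 10 genes, the value without it is given too. Proximal tubule cells were present by their markers in every group, with a summed level of 4907 to 9168 CPM in zalfermin, 4869 to 8952 CPM in vehicle and 23249 to 29805 CPM in healthy libraries over 14 genes, none of them at 0. The highest of the vehicle sums was that of replicate 6. Levels are in CPM, read counts relative to the library total after scaling by the trimmed mean of M-values (TMM).

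On GRCm38, Hif1a lies at chr12:73901375-73947530, Epas1 at chr17:86753700-86833410 and Arnt at chr3:95434388-95497240, all on the plus strand. Hif3a (chr7:17031507-17062427), Egln1 (chr8:124908587-124949324), Egln2 (chr7:27158658-27166802), Egln3 (chr12:54178981-54203860), Bnip3 (chr7:138890836-138909519) and Ankrd37 (chr8:45996902-46005707) are on the minus strand, and Vhl (chr6:113623959-113631633) is on the plus strand. Scaled to exon length, so that genes could be set side by side, Bnip3 had the highest level in healthy kidneys and Epas1 in both obstructed groups. Mean levels in healthy kidneys were 47.9 ± 5.55 CPM per kb for Bnip3, 34.3 ± 1.60 for Egln1, 30.6 ± 2.77 for Egln2, 26.8 ± 4.30 for Epas1 and 20.1 ± 2.83 for Hif1a (SD, n = 4). The library ranges of Bnip3 and Egln1 did not overlap there, while those of Egln1, Egln2, Epas1 and Hif1a overlapped from each gene to the next. Vhl at 11.1 ± 0.488, Egln3 at 8.09 ± 1.05 and Arnt at 5.46 ± 0.748 CPM per kb followed with ranges apart, and Ankrd37 at 1.24 ± 0.257 and Hif3a at 0.0877 ± 0.0368 closed the order. In vehicle kidneys Epas1 led at 34.0 ± 5.06 CPM per kb, and Egln2 (24.1 ± 5.15), Bnip3 (23.9 ± 2.18), Hif1a (22.8 ± 5.84) and Egln1 (20.1 ± 1.65) followed, each range overlapping the next from Epas1 on (SD, n = 7). Without vehicle replicate 6 the order of these means was Epas1 (34.99 ± 4.70 CPM per kb), Hif1a (24.9 ± 2.17), Bnip3 (24.2 ± 2.22), Egln2 (22.4 ± 3.04) and Egln1 (19.7 ± 1.55; SD, n = 6). In zalfermin kidneys the leading genes were Epas1 at 32.5 ± 4.12, Bnip3 at 30.5 ± 3.11 and Hif1a at 27.8 ± 1.62 CPM per kb, neighbours whose ranges overlapped, and the Hif1a range lay above that of Egln2 (22.6 ± 1.998; SD, n = 8).

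**Figure D1:**
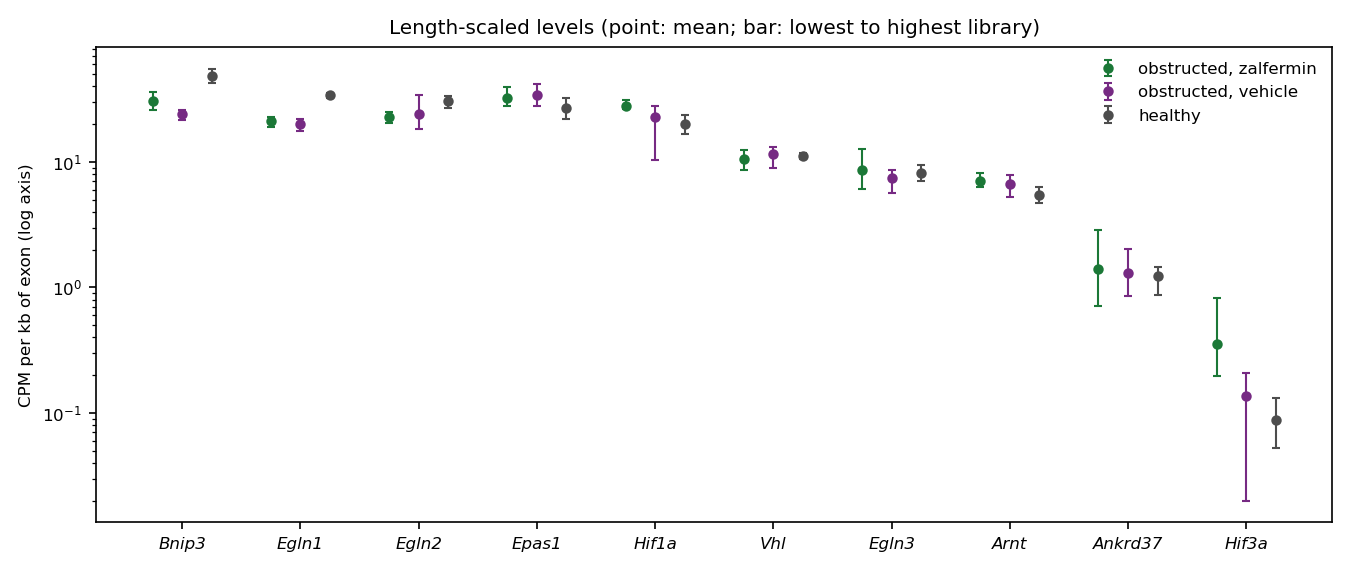
Mean level of each of the 10 genes in CPM per kb of exon (log axis) in obstructed kidneys given zalfermin, obstructed kidneys given vehicle and healthy kidneys, with bars from the lowest to the highest library. Bnip3 leads at 47.9 CPM per kb in healthy kidneys, and Hif3a is lowest in all 3 groups.

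Vehicle-treated obstructed kidneys were compared with healthy kidneys to show how the pathway stands in the injured organ. Bnip3, Egln1 and Egln2 fell, Bnip3 to 54.1 ± 4.95 CPM (SD, n = 7) against 109 ± 12.6 CPM (SD, n = 4), and Epas1 and Arnt rose by smaller amounts. Hif1a, Hif3a, Vhl, Egln3 and Ankrd37 did not pass the test. In all 5 of the 10 genes were called, 2 higher and 3 lower, where 64.8% of all 16026 tested genes were called (36.2% higher and 28.6% lower). The ranges of the groups were apart for 2 of the 10 genes, against 44.2% of all tested genes. The median log2 fold change was 0.06 over the 10 genes and 0.09 over all tested genes. A gene is called at an adjusted p (Benjamini-Hochberg over all tested genes) under 0.05 in edgeR's quasi-likelihood test. In whole-kidney RNA, fewer cells that express a gene and less of its RNA per cell cannot be told apart.

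Of the alpha subunits and their partner, Epas1 and Arnt were called and Hif1a and Hif3a were not. Hif1a, on mouse chromosome 12, had between 60.9 and 166 CPM in vehicle kidneys with a median of 149, against 139, 97.8, 120.0 and 119 CPM in healthy kidneys. Vehicle replicate 6 was the lowest library of all, and the other 6 vehicle libraries lay between 132 and 166 CPM. The log2 fold change was 0.18 (SE 0.166, adjusted p = 0.354), and without vehicle replicate 6 it was 0.25 (adjusted p = 0.00776). With all libraries, Hif1a was called higher by voom (0.31, adjusted p = 0.00331). It was also called with library totals only (0.60, adjusted p = 0.00329), where the median of all genes was 0.51. Epas1, on chromosome 17, had 156 to 232 CPM in vehicle kidneys with a median of 193, against 179.9, 143, 154 and 122 CPM in healthy kidneys. All 7 vehicle libraries lay above the healthy median, though the groups overlapped, and Epas1 rose by a log2 of 0.34 (SE 0.124, adjusted p = 0.0196). Arnt, on chromosome 3, had 42.0 to 63.3 CPM in vehicle kidneys with a median of 56.7, against 50.7, 37.8, 46.6 and 39.8 CPM in healthy kidneys. It rose by 0.29 (SE 0.106, adjusted p = 0.0201), with vehicle replicate 6 again its lowest vehicle library. Both calls were lost with relative log expression (RLE) factors and with DESeq2 (Epas1 adjusted p = 0.0651 and 0.0586; Arnt 0.0775 and 0.0791). They were also lost without healthy replicate 2 (Epas1 0.0527, Arnt 0.0914) or healthy replicate 4 (0.0970 and 0.0727), and Arnt's when only these groups were fitted (0.0514). Hif3a was near the limit of detection, with 2 to 22 reads a vehicle library and 10, 4, 5 and 7 reads in healthy libraries, a log2 difference of 0.64 (SE 0.510, adjusted p = 0.282).

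Of the genes that destroy HIF, Egln1 fell most. Egln1 encodes the hydroxylase regarded as the main oxygen sensor. It had 63.2 to 79.0 CPM in vehicle kidneys with a median of 72.5, against 115, 126, 124 and 128 CPM in healthy kidneys. Every vehicle library lay below every healthy one, and the fall was 1.71-fold (log2 -0.78, SE 0.0752, adjusted p = 6.32e-09). Egln2, a hydroxylase gene not known to be induced by low oxygen, had 51.4 to 94.9 CPM in vehicle kidneys with a median of 62.4, against 75.1, 93.7, 86.1 and 87.7 CPM in healthy kidneys. Vehicle replicate 6 was its highest library of all, and the fall was 1.27-fold (log2 -0.35, SE 0.122, adjusted p = 0.0165; -0.50 and 6.17e-05 without vehicle replicate 6; 0.0621 without healthy replicate 2). Egln3, itself a HIF target in many cells, had 15.2 to 22.9 CPM in vehicle kidneys, against 18.6, 21.6, 25.3 and 20.7 CPM in healthy kidneys. The groups overlapped through most of their range and the log2 difference was -0.11 (SE 0.164, adjusted p = 0.578). Vhl had 26.8 to 39.4 CPM in vehicle kidneys, against 33.1, 35.1, 31.5 and 32.8 CPM in healthy kidneys (log2 0.06, SE 0.106, adjusted p = 0.642). With library totals as the only scaling, the median of all genes stood at a log2 of 0.51. Egln1 then stood at -0.35 (adjusted p = 0.000113), a smaller fall that was still called, and Egln2 at 0.08 (adjusted p = 0.556). The fall of Egln2 is thus one relative to the other genes.

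The hydroxylases stood in different proportions. Of their summed length-scaled level, Egln1 made up 39.2 ± 3.57% in vehicle kidneys and 47.1 ± 1.31% in healthy kidneys, and Egln3 made up 14.6 ± 1.38% and 11.1 ± 1.08% (SD, n = 7 and 4). Without vehicle replicate 6 the vehicle shares were 39.96 ± 3.14% for Egln1 and 14.9 ± 1.22% for Egln3 (SD, n = 6). The ratio of Egln3 to Egln1 reads within a library, which no scaling of the library touches, was 1.59 times as high in vehicle kidneys (log2 -1.86 ± 0.191 against -2.52 ± 0.155 in healthy kidneys). Its groups did not overlap, and the two-sided exact permutation test gave p = 0.00606, the smallest that 7 against 4 libraries allow (adjusted p = 0.0291 over the 12 tests of ratios). The ratio of Egln1 to Egln2 was lower by a log2 of -0.41 in vehicle kidneys, averaging 0.12 ± 0.242 against 0.53 ± 0.0770 in healthy kidneys (exact p = 0.0121, adjusted p = 0.0291). The ratio of Egln3 to Egln2 differed by 0.26 (exact p = 0.0848, adjusted p = 0.170; 0.32 and adjusted p = 0.0413 without vehicle replicate 6). The calls of Egln3 to Egln1 and Egln1 to Egln2 were lost with any 1 of the 4 healthy libraries left out (adjusted p = 0.05 to 0.08). They were also lost when medians were compared in place of means (adjusted p = 0.0582). With a healthy library left out, the smallest p this test allows is larger, so a loss there need not mean a smaller difference. The log2 differences were then 0.63 to 0.74 for Egln3 over Egln1 and -0.44 to -0.38 for Egln1 over Egln2.

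Of the targets, Bnip3 fell and Ankrd37 did not pass the test. Bnip3 encodes a mitochondrial membrane protein that recruits the autophagy machinery to mitochondria. It had 48.6 to 59.0 CPM in vehicle kidneys with a median of 54.3, against 95.5, 109, 104 and 125 CPM in healthy kidneys. No vehicle library reached a healthy one, and the fall was 2.01-fold (log2 -1.004, SE 0.0920, adjusted p = 2.55e-09; log2 -0.58 and adjusted p = 3.39e-06 with library totals only). Ankrd37, an ankyrin repeat gene induced by HIF in cultured cells, had 1.33 to 3.12 CPM in vehicle kidneys, against 2.22, 1.33, 2.02 and 2.06 CPM in healthy kidneys. Its log2 difference was 0.06 (SE 0.329, adjusted p = 0.881), from 14 to 60 reads a library over all 3 groups. The ratio of Bnip3 to Ankrd37 reads was lower in vehicle kidneys by a log2 of -1.02 (4.80 ± 0.469 against 5.81 ± 0.388; exact p = 0.0121, adjusted p = 0.0291). This call too was lost without any 1 healthy library (adjusted p = 0.05 to 0.08) and with medians (0.0582). The smallest p of the test is again larger with a healthy library left out, and the log2 difference was then -1.15 to -0.85. Exons of Ankrd37 share 57 bases with Ufsp2 and 349 bases with Lrp2bp on the opposite strand. The sources used here do not give the authors' strand setting, and part of its 541 reads could belong to these genes, which had 12152 and 158 reads.

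The promoters of these genes were searched for the core of the hypoxia response element, ACGTG or GCGTG on either strand. The sequences below are the 250 bases before the RefSeq start of 5 genes, written 5′ to 3′ along the gene with cores in capitals. Bnip3 and Egln1 are shown because their levels with obstruction did not overlap those of healthy kidneys, Hif3a because it was called with zalfermin, and Egln3 and Ankrd37 as target genes that did not pass either test. All are on the minus strand of GRCm38.p6, at chr7:138909507-138909756 (Bnip3), chr8:124949255-124949504 (Egln1), chr12:54203875-54204124 (Egln3), chr8:45999851-46000100 (Ankrd37) and chr7:17062428-17062677 (Hif3a).
Bnip3: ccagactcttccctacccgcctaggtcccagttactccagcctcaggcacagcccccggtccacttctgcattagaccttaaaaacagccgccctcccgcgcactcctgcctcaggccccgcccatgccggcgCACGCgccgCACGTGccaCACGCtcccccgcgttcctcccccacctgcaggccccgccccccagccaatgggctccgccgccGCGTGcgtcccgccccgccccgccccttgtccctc
Egln1: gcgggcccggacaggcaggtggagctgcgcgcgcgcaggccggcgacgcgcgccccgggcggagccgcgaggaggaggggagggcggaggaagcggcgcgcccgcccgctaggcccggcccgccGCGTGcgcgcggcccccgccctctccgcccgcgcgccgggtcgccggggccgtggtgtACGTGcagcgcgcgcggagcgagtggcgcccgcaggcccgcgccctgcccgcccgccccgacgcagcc
Egln3: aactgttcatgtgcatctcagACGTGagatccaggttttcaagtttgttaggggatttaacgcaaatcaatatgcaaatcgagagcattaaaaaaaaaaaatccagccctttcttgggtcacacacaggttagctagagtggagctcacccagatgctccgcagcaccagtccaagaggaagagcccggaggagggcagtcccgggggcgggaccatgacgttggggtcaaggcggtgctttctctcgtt
Ankrd37: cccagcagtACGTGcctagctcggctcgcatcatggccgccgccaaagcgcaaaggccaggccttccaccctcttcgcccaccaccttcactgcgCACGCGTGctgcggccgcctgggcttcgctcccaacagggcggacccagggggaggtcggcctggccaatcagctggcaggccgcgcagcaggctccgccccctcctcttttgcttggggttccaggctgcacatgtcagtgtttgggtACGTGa
Hif3a: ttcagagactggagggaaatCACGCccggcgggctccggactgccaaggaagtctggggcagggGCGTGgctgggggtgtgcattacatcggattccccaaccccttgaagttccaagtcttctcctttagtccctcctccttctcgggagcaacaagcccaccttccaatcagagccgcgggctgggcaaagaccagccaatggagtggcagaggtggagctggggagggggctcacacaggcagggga

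Counted over RefSeq windows of 300 bases, from 250 before to 50 after the start, the most cores were in 1 of the 2 windows of Egln2, with 6, while its other window held 1. Bnip3 held 5 cores, Ankrd37 4, Hif1a 3, Egln1 and Hif3a 2 each, and Egln3 and Arnt 1 each. The palindrome CACGTG counts once on each strand, and it lies in Bnip3, in Hif1a and in the Egln2 window with 6 cores. CACGCGTG in Ankrd37 holds a core on each strand. The end of the Hif1a window matched no transcript of the gene. Of the 9 genes with a window, 8 held at least 1 core in a window. Counted by window and not by gene, 43.8% of all 32851 promoter windows held at least 1 core and 20.6% at least 2. Vhl held none, and Epas1 had no window in the table. A match of these letters is a description and not a bound site.

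**Figure D2:**
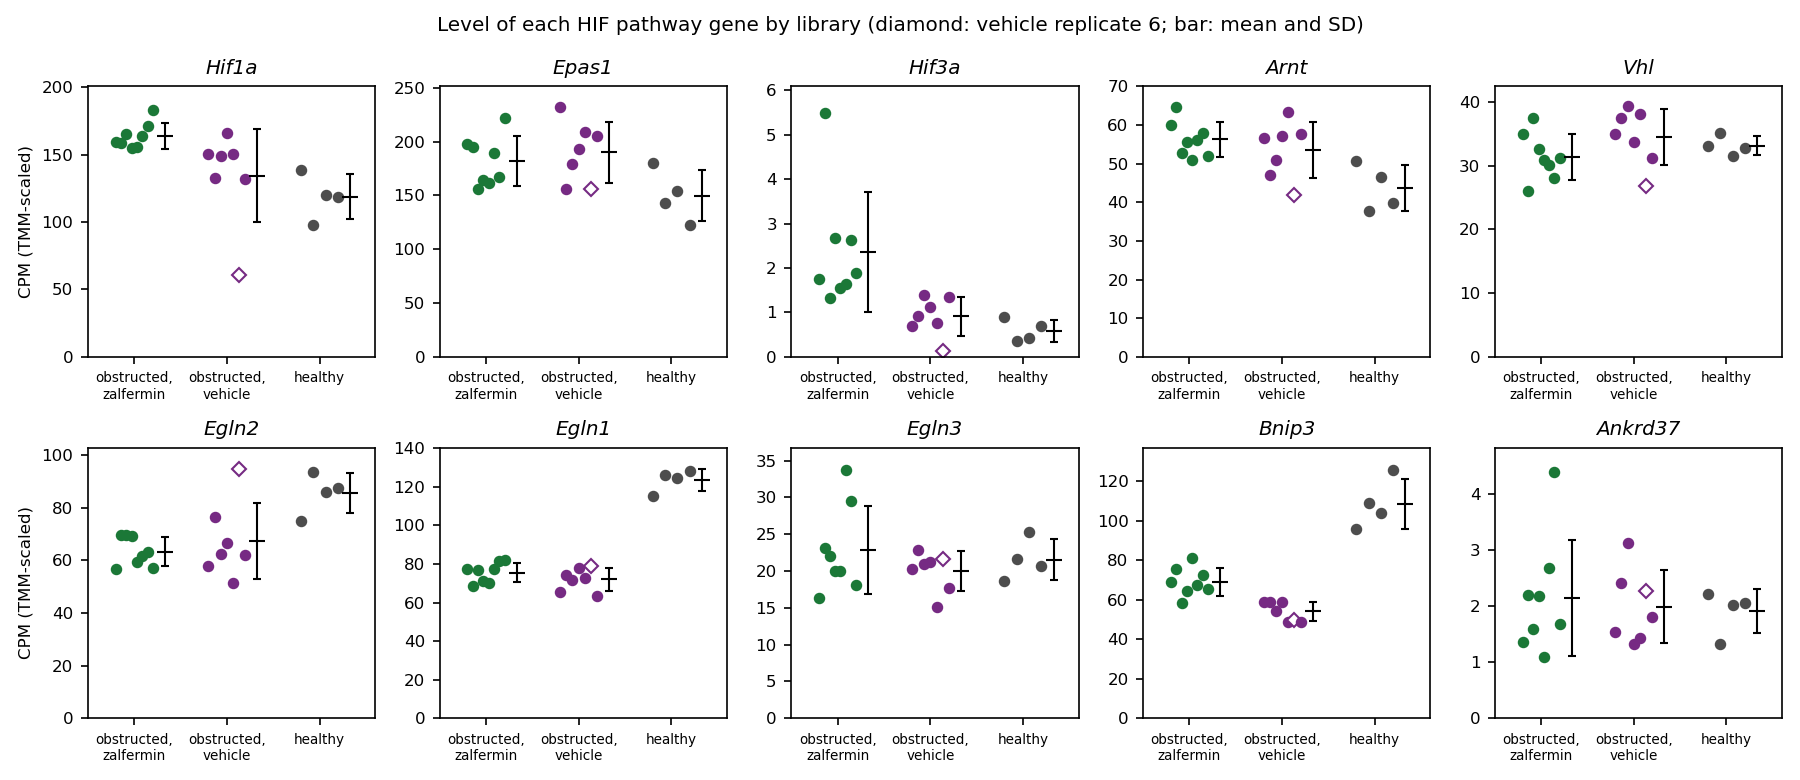
TMM-scaled CPM of each gene in every library, in obstructed kidneys given zalfermin, obstructed kidneys given vehicle and healthy kidneys; the open diamond is vehicle replicate 6, and bars give mean and SD. Egln1 and Bnip3 are lower in every obstructed library than in any healthy one, and Hif1a of vehicle replicate 6 stands alone at 60.9 CPM.

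Other regulators and targets of HIF, taken from lists of known pathway genes, moved in both directions with obstruction, as did the tested genes as a whole. Beside the counts of these lists stand 36.2% of all 16026 tested genes called higher and 28.6% called lower. Of 24 further genes of oxygen sensing and HIF regulation, 6 rose and 6 fell. Arnt2, a relative of Arnt, averaged 96.3 ± 4.42 CPM in vehicle kidneys and 58.2 ± 6.24 CPM in healthy kidneys (log2 0.73, adjusted p = 1.74e-07). The coactivator Ep300 rose by 0.71 (adjusted p = 1.23e-05) and the replication helicase subunit Mcm7 by 0.85 (adjusted p = 4.90e-06). The list median was -0.16, against 0.09 for all genes, and without vehicle replicate 6 the list had 7 genes higher and 10 lower. With library totals only, 13 were higher and none lower, where the median of all genes was 0.51.

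Of 24 HIF target genes of glucose use and acid balance, 17 fell and 6 rose, with a list median of -0.50. Car12, a membrane carbonic anhydrase, averaged 139 ± 16.2 CPM in vehicle kidneys and 357 ± 21.2 CPM in healthy kidneys (log2 -1.36, adjusted p = 6.32e-10). Gbe1, the glycogen branching enzyme, fell by a log2 of -1.23 (adjusted p = 5.52e-10). Hk2, a hexokinase isoform, went the other way, at 20.6 ± 4.41 CPM in vehicle kidneys and 0.866 ± 0.476 CPM in healthy kidneys (log2 4.57, adjusted p = 8.08e-10). With library totals only, 10 genes were lower and 7 higher.

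Of 22 tested targets of blood, vessel and matrix biology, 13 rose and 4 fell, with a list median of 0.58. Loxl2, a collagen cross-linking oxidase, averaged 60.8 ± 5.87 CPM in vehicle kidneys and 7.19 ± 1.19 CPM in healthy kidneys (log2 3.08, adjusted p = 1.43e-13). Edn1, the endothelin vasoconstrictor, rose by 3.33 (adjusted p = 1.60e-13) and Pdgfb, a fibroblast and pericyte mitogen, by 2.44 (adjusted p = 8.31e-13). The 4 that fell were the transferrin receptor gene Tfrc (log2 -1.90), the endothelial growth factor gene Vegfa (-1.16), the chemokine gene Cxcl12 (-0.61) and the VEGF receptor gene Kdr (-0.59). The calls of Cxcl12 and Kdr were lost with library totals only, and that of Cxcl12 without healthy replicate 1 (-0.39, adjusted p = 0.131). Epo, the erythropoietin gene, could not be tested, with 0 reads over the 7 vehicle libraries and 2 over the 4 healthy ones.

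Of 25 targets in stress responses and feedback, 8 rose and 10 fell, with a list median of 0.15. With library totals only, 12 were higher and 6 lower. Stc2, a secreted glycoprotein, averaged 27.3 ± 3.82 CPM in vehicle kidneys and 4.01 ± 1.84 CPM in healthy kidneys (log2 2.77, adjusted p = 4.77e-10). Ddit4, an inhibitor of the growth kinase mTOR, rose by 1.53 (adjusted p = 1.24e-09) and the histone demethylase gene Kdm5b by 0.88 (adjusted p = 7.60e-09). Of 19 tested mitophagy genes other than Bnip3, 12 fell and 1 rose, with a list median of -0.34. Pink1, the kinase that tags damaged mitochondria, averaged 179.6 ± 32.4 CPM in vehicle kidneys and 432 ± 47.1 CPM in healthy kidneys (log2 -1.27, adjusted p = 1.25e-09). Gabarapl1 and Gabarapl2, of the autophagosome membrane, fell by a log2 of -1.05 and -0.58 (adjusted p = 6.62e-10 and 6.31e-06). Optn, a cargo receptor, was the 1 that rose (0.45, adjusted p = 9.87e-05). With library totals only, the mitophagy list had 5 genes higher and 3 lower, and the call of Gabarapl2 was lost (-0.15, adjusted p = 0.122).

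Markers of other cells moved at the same time, where 36.2% of all tested genes were called higher and 28.6% lower. All 14 proximal tubule markers and 10 of 12 markers of the later nephron fell. All 12 macrophage markers rose, as did 10 of 12 fibroblast and pericyte markers, with Nt5e lower, and 8 of 9 T cell, B cell and neutrophil markers. Of 12 endothelial markers Pecam1, Cdh5 and Eng rose and Esam fell, and of 8 podocyte markers 3 rose and 2 fell, with Nphs1 among those that fell. The call of Esam was lost with upper-quartile factors (adjusted p = 0.0631), with library totals only (0.6248), and without healthy replicate 1 (0.132), healthy replicate 2 (0.104) or vehicle replicate 4 (0.0507). That of Nphs1 was lost with library totals only (0.746) and without healthy replicate 4 (0.0707), and that of Nt5e with library totals only (0.253). With library totals only, 7 endothelial and 5 podocyte markers were higher and edgeR called 0 of either lower. The endothelial markers were 6 higher and 0 lower without healthy replicate 1, and 5 higher and 0 lower without healthy replicate 2. Summed fibroblast and pericyte markers were 3284 to 5472 CPM in vehicle kidneys, against 626 to 757 CPM in healthy kidneys, and macrophage markers 1318 to 1730 CPM against 175 to 213 CPM. The summed endothelial markers overlapped, at 863 to 1045 CPM in vehicle kidneys and 519 to 938 CPM in healthy kidneys. No marker was at 0 in any group, and the part of these cell changes in the levels of the pathway genes was not tested.

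**Figure D3:**
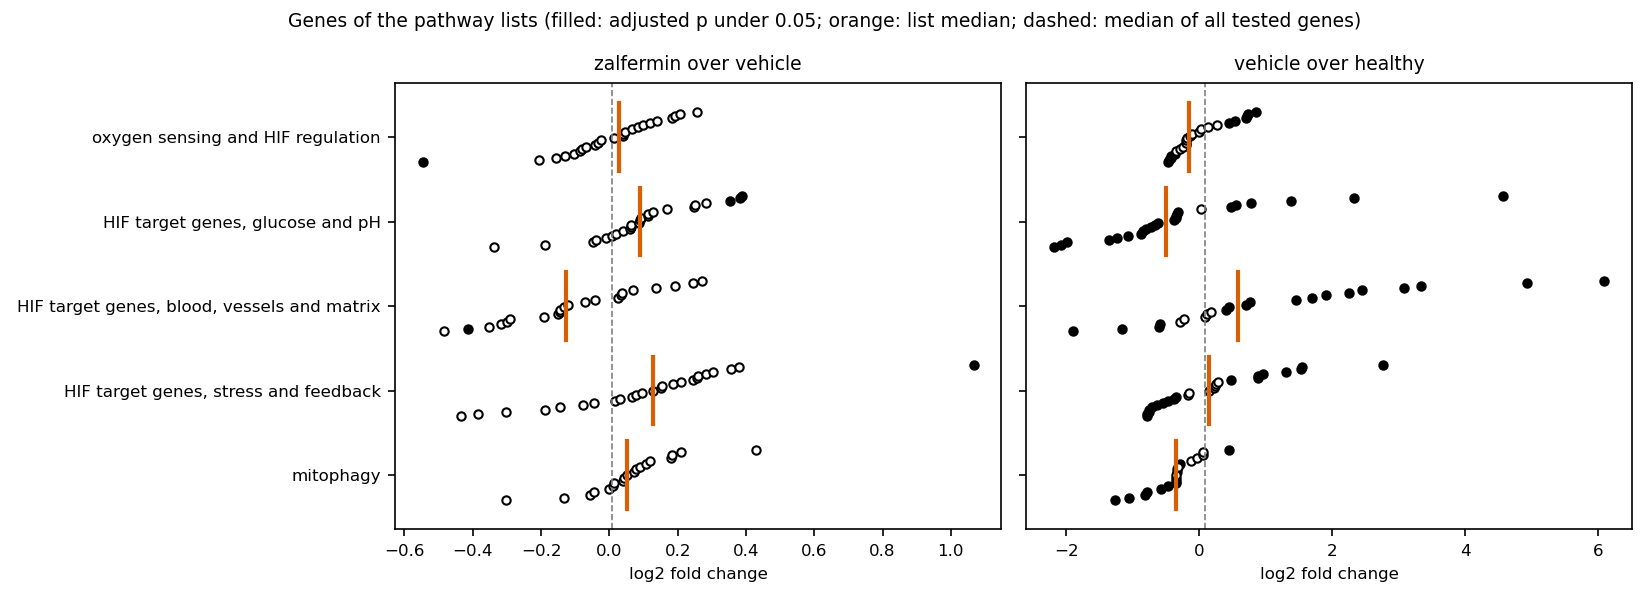
Log2 fold change of each gene of the 5 pathway lists, zalfermin over vehicle on the left and vehicle over healthy on the right, with filled points for genes called at an adjusted p under 0.05, an orange bar for the list median and a dashed line for the median of all tested genes. On the right the glucose and mitophagy lists lie mostly below 0 and the blood, vessel and matrix list mostly above, and on the left most points are open.

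Zalfermin-treated obstructed kidneys were compared with vehicle-treated obstructed kidneys to show what the drug changed. Bnip3 rose 1.28-fold and Hif3a rose 2.58-fold. The other 8 genes did not pass the test. The 2 called genes of 10 stand beside 1.81% of all tested genes called in this comparison, 0.867% of them higher. edgeR called 0 of the 10 lower, as did DESeq2 and voom. An unadjusted p under 0.05 in edgeR was found for 3 of the 10, beside 2479 of all 16026 tested genes. The groups overlapped for each of the 10 genes, where 0.605% of all tested genes did not overlap.

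Bnip3 had 58.3 to 81.0 CPM in zalfermin kidneys with a median of 68.2, against 48.6 to 59.0 CPM with a median of 54.3 in vehicle kidneys. All 8 zalfermin libraries lay above the vehicle median, and 1 of them, replicate 3, lay below the highest vehicle libraries. The log2 fold change was 0.35 (SE 0.0781, adjusted p = 0.0210), and it was lost only without vehicle replicate 7 (0.33, adjusted p = 0.0529) among the 24 alternatives. The ratio of Bnip3 to Ankrd37 differed by a log2 of 0.31 between zalfermin and vehicle kidneys (exact p = 0.317, adjusted p = 0.422).

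Hif3a had 1.32 to 5.49 CPM in zalfermin kidneys with a median of 1.82, against 0.134 to 1.40 CPM with a median of 0.914 in vehicle kidneys. Hif3a encodes an alpha subunit whose short splice forms in mice restrain the other alpha subunits, and the gene counts do not separate the forms. All 8 zalfermin libraries lay above the vehicle median, and replicate 2, with 80 reads against 20 to 42 in the others, lay far above them. The log2 fold change was 1.37 (SE 0.354, adjusted p = 0.0474), and without zalfermin replicate 2 it was 1.07 (adjusted p = 0.120). The call was lost in 15 of 24 alternatives. These were RLE factors, upper-quartile factors, library totals only, a fit of these groups alone, and any of vehicle replicates 1, 2, 4, 5 and 7 or zalfermin replicates 1, 2, 4, 5, 7 and 8 left out. It held with DESeq2 (adjusted p = 0.00933) and voom (0.0329). The ratio of Hif3a to Hif1a reads was 2.14 times as high in zalfermin kidneys (log2 -6.23 ± 0.664 against -7.33 ± 0.659 in vehicle kidneys; exact p = 0.0028, adjusted p = 0.0291).

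Hif1a had 155 to 183 CPM in zalfermin kidneys with a median of 162, against 60.9 to 166 CPM with a median of 149 in vehicle kidneys. All 8 zalfermin libraries lay above the vehicle median, and the log2 difference of 0.29 (SE 0.136) did not pass the test (adjusted p = 0.315). Without vehicle replicate 6 it was 0.15 (adjusted p = 0.243). Epas1 had 156 to 222 CPM in zalfermin kidneys and 156 to 232 CPM in vehicle kidneys, a log2 difference of -0.06 (SE 0.101, adjusted p = 0.804). The ratio of Hif1a to Epas1 reads within a library was higher in zalfermin kidneys, at a log2 of -0.14 ± 0.156 against -0.54 ± 0.400 in vehicle kidneys. The difference of 0.40 had an exact p of 0.00963 (adjusted p = 0.0291), and without vehicle replicate 6, which stood at -1.35, it was 0.27 (adjusted p = 0.0413).

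The remaining genes of the pathway lay close together in both obstructed groups. Egln1 had 68.4 to 81.9 CPM in zalfermin kidneys and 63.2 to 79.0 CPM in vehicle kidneys (log2 0.07, SE 0.0634, adjusted p = 0.642). Egln3 reached 33.8 and 29.5 CPM in zalfermin replicates 6 and 7, above all vehicle libraries, while the other 6 zalfermin libraries lay between 16.3 and 23.2 CPM (log2 0.19, SE 0.134, adjusted p = 0.516). Vhl had 26.0 to 37.4 CPM in zalfermin kidneys and 26.8 to 39.4 CPM in vehicle kidneys (log2 -0.14, SE 0.0864, adjusted p = 0.472). The log2 differences of Egln2 (-0.09), Arnt (0.07) and Ankrd37 (0.11) had adjusted p of 0.712, 0.732 and 0.879. The ratios of Egln1 to Egln2, Egln3 to Egln1 and Egln3 to Egln2 differed by 0.14, 0.10 and 0.23 between zalfermin and vehicle kidneys (exact p = 0.240, 0.534 and 0.153). Ankrd37 reached 4.39 CPM in zalfermin replicate 7, with 60 reads, and lay between 1.09 and 2.67 CPM in the others.

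**Figure D4:**
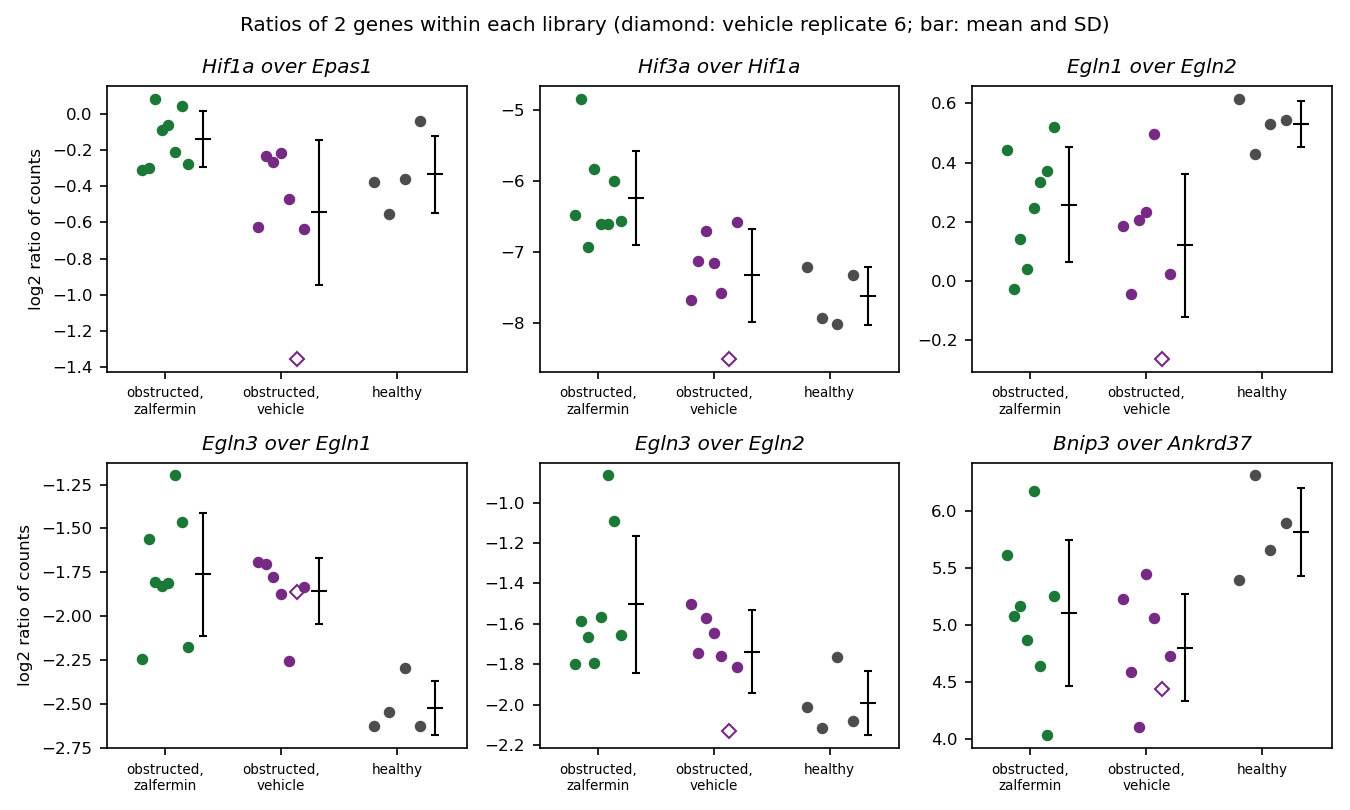
Log2 ratio of the read counts of a pair of genes within each library, in obstructed kidneys given zalfermin, obstructed kidneys given vehicle and healthy kidneys; the open diamond is vehicle replicate 6, and bars give mean and SD. Egln3 over Egln1 is higher in all vehicle libraries than in any healthy one, and Hif3a over Hif1a averages -6.23 with zalfermin against -7.33 with vehicle.

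Most of the further pathway genes did not pass the test with zalfermin, and of all tested genes 1.81% did (0.867% higher and 0.942% lower). Of the 24 target genes of glucose use and acid balance, 3 rose: Pdk1, a pyruvate dehydrogenase kinase gene, Gbe1, and Pfkfb3, which promotes glycolysis. Pdk1 averaged 44.4 ± 6.62 CPM in zalfermin kidneys and 33.9 ± 2.84 CPM in vehicle kidneys (log2 0.39, adjusted p = 0.0271). Gbe1 averaged 38.3 ± 3.39 and 29.96 ± 4.38 CPM (0.35, adjusted p = 0.0369) and Pfkfb3 41.1 ± 6.47 and 31.6 ± 3.63 CPM (0.38, adjusted p = 0.0421). Of these, Pdk1 and Gbe1 had fallen with obstruction like Bnip3, and Pfkfb3 had risen. Both comparisons use the same vehicle libraries, so a deviation in that group favours opposite directions, and a reversal was not tested. Of the stress and feedback targets 1 rose: Bhlhe41, a transcriptional repressor of the clock, averaged 8.77 ± 1.82 CPM in zalfermin kidneys and 4.19 ± 0.914 CPM in vehicle kidneys (1.07, adjusted p = 0.00122). Its groups did not overlap. Siah2, a ubiquitin ligase that acts on the prolyl hydroxylases, fell by -0.55 (adjusted p = 0.0482) and was the 1 call among 24 oxygen-sensing genes. Loxl2 fell by -0.41 (adjusted p = 0.0301), the 1 call among 22 blood, vessel and matrix targets.

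These calls were close to the threshold, apart from that of Bhlhe41, which held in every alternative. That of Pdk1 was lost with upper-quartile factors, with library totals only, or without vehicle replicate 2 or 5 or zalfermin replicate 2, 5 or 7 (adjusted p up to 0.0803). That of Gbe1 was lost in 13 of 24 alternatives, 9 of them without 1 library (vehicle replicates 2, 3 and 7, zalfermin replicates 1, 2, 4, 5, 7 and 8; adjusted p up to 0.0779). That of Pfkfb3 was lost in 13, again 9 without 1 library (vehicle replicates 2, 3, 5 and 7, zalfermin replicates 1, 2, 5, 6 and 7; up to 0.0947). That of Loxl2 was lost without vehicle replicate 2, 3, 5 or 7 or zalfermin replicate 1, 2, 4 or 5 (up to 0.0749). That of Siah2 was lost in 15, among them voom and any of vehicle replicates 2, 4, 5, 6 and 7 or of the zalfermin replicates left out (up to 0.112). Of the 19 mitophagy genes edgeR and DESeq2 called 0 and voom 2, and 5 had an unadjusted p under 0.05 in edgeR. So had 12 of 25 stress and feedback targets, 4 of 24 glucose and acid balance targets and 4 of 22 blood, vessel and matrix targets. The oxygen-sensing list had 3 of 24, and all tested genes 2479 of 16026.

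Markers of fibroblasts moved with zalfermin, where 0.867% of all tested genes were called higher and 0.942% lower. Col1a1, Col1a2 and Col3a1 fell by a log2 of -0.86, -0.73 and -0.77 (adjusted p = 0.00301, 0.00122 and 0.00543), 3 calls among 12 fibroblast and pericyte markers, of which 5 were called without vehicle replicate 6. The summed markers were 2043 to 3011 CPM in zalfermin kidneys and 3284 to 5472 CPM in vehicle kidneys, with no overlap. Of 14 proximal tubule markers Slc5a12 rose by 0.90 (adjusted p = 0.0231; 3 called without vehicle replicate 6), and the summed level overlapped, at 4907 to 9168 CPM with zalfermin and 4869 to 8952 CPM with vehicle. Of 8 podocyte markers Wt1 rose by 0.43 (adjusted p = 0.0268). The calls of Slc5a12 and Wt1 were lost without vehicle replicate 2 or 7, and that of Wt1 also with library totals only and without zalfermin replicate 4, 5 or 7 (adjusted p up to 0.0573 and 0.0633). No marker was at 0 in a group, and the part of these cells in the values of Bnip3, Hif3a and the listed targets was not tested. The mitochondrial share of counts had medians of 3.72% with zalfermin and 3.40% with vehicle.

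Zalfermin-treated obstructed kidneys were also set against healthy kidneys, a comparison that shares its libraries with the other comparisons. Hif1a, Epas1, Hif3a and Arnt were higher and Egln1, Egln2 and Bnip3 lower, 7 of 10 called where 64.3% of all tested genes were (37.3% higher and 27.0% lower). The groups did not overlap for 6 of the 10, against 51.2% of all tested genes. Hif1a had 155 to 183 CPM in zalfermin kidneys, above all healthy libraries (97.8 to 139 CPM), and was higher by a log2 of 0.47 (SE 0.164, adjusted p = 0.0168). That call was lost with RLE factors (adjusted p = 0.0519) and without healthy replicate 2 (0.0729). Hif3a was higher by 2.004 (SE 0.484, adjusted p = 0.000989) and Arnt by 0.36 (SE 0.104, adjusted p = 0.00429), both with no overlap. Epas1 was higher by 0.28 (SE 0.121, adjusted p = 0.0491), a call lost in 11 alternatives, 7 of them without 1 library (zalfermin replicates 1, 2, 6 and 8, healthy replicates 2, 3 and 4, with adjusted p reaching 0.202). Egln1 was 1.63-fold lower (log2 -0.71, adjusted p = 1.86e-08), Egln2 1.35-fold (-0.44, adjusted p = 0.00281) and Bnip3 1.57-fold (-0.65, adjusted p = 1.36e-06), each with every zalfermin library below every healthy one. With library totals only Egln2 stood at -0.04 (adjusted p = 0.755). Over the alternatives other than leaving 1 library out, the smallest falls were -0.32 for Egln1 and -0.25 for Bnip3, and both calls held. Vhl, Egln3 and Ankrd37 did not pass the test, at -0.08, 0.08 and 0.17 (adjusted p = 0.521, 0.657 and 0.661).

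**Figure D5:**
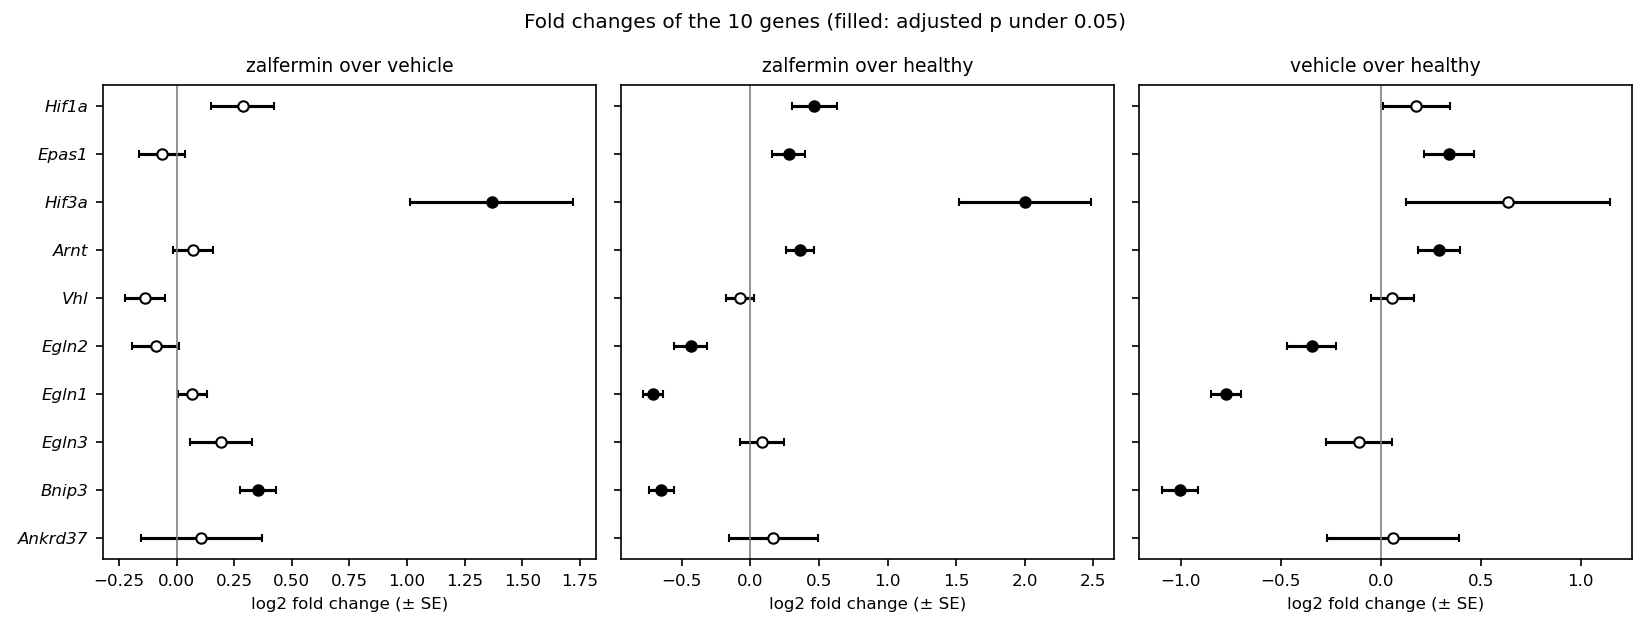
Log2 fold change and SE of each gene for zalfermin over vehicle, zalfermin over healthy and vehicle over healthy, filled where the adjusted p was under 0.05; the panels have their own axes. Hif3a (1.37) and Bnip3 (0.35) are filled in the first panel, and Egln1 and Bnip3 lie well below 0 in the other panels.

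Within groups, the libraries in which 1 gene was high could be compared with those of another by correlating deviations from the group means of log2 CPM over the 19 libraries. The values share library composition, above all vehicle replicate 6, and are given as a description. Hif1a and Egln2 deviated in opposite directions (Pearson r = -0.77 over 19 libraries, -0.48 over 18 without vehicle replicate 6), and so did Epas1 and Egln2 (-0.70 and -0.67). Arnt deviated with Epas1 (0.69 and 0.63). Bnip3 had an r between -0.22 and 0.23 with Hif1a, Epas1, Arnt, Vhl, Egln1, Egln2 and Egln3. Without vehicle replicate 6 these values lay between -0.34 and 0.26. Among 11632 genes that averaged 5 CPM or more, those most like Bnip3 were Slc25a20 (0.79) and Atp6v1d (0.77). Those most like Epas1 were Kcnd3 (0.93), Pcdhgc3 (0.90) and Adgrf5 (0.89), and for Egln1 they were Fbxo22 (0.84), Jagn1 (0.81) and Ddx18 (0.80). Those most like Hif1a were Cggbp1, Cul5 and Cnot7 (0.98, 0.98 and 0.97), which stood at 0.84, 0.84 and 0.83 without vehicle replicate 6. The nearest genes were Ino80d, Zbtb37 and Senp7 for Arnt (0.94, 0.92 and 0.92), Cdc37, Gadd45gip1 and Dapk3 for Egln2 (0.94, 0.94 and 0.93), Rarres2, B4galt2 and Dll4 for Egln3 (0.76, 0.75 and 0.73) and Rpf1, Hacd1 and Fam198b for Vhl (0.83, 0.78 and 0.75). These are the nearest genes over all 19 libraries. Without vehicle replicate 6 other genes came nearest to Hif1a, Arnt, Egln1, Egln3, Vhl and Bnip3. Epas1 then kept Kcnd3 (0.92), followed by Abca9 and Ptprb (both 0.90), and Egln2 kept the same genes in another order. No likeness is given for Hif3a and Ankrd37, which had few reads.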

How the data were processed

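Whole-kidney RNA from 19 libraries was analysed, 8 from obstructed kidneys given zalfermin, 7 from obstructed kidneys given vehicle and 4 from healthy kidneys. The authors deposited raw read counts per gene, unnormalised whole numbers for 55536 genes. Per the labels' protocols, RNA was extracted with a NucleoSpin kit and sequenced from directional NEBNext Ultra II libraries on a NextSeq, and per the submitters' processing notes reads were aligned with STAR 2.7.0f to GRCm38. The sources used here give no counting program, strand setting or annotation, and all gene identifiers were found in GENCODE mouse release 21. None of the 55 pairs of libraries within a group agreed within sampling noise.

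The counts were fitted in R 4.3.3 with edgeR 4.0.16 (quasi-likelihood F test, all 3 groups in 1 fit, TMM factors), after filterByExpr with a minimum count of 10 and a minimum total of 15 left 16026 genes. Adjusted p-values are Benjamini-Hochberg values over these genes, with a threshold of 0.05. DESeq2 1.42.0 and limma 3.58.1 (voom with quality weights) were alternatives, and the edgeR fit was tested on simulated data. Other alternatives were RLE and upper-quartile factors, library totals only, no filter, 1 CPM in 4 libraries, robust dispersions, a fit of the groups compared and each library left out. Counts per list, length-scaled levels and hydroxylase shares without vehicle replicate 6 were added after seeing the data. Ratios within a library used counts plus 0.5 and a two-sided exact permutation test over libraries.

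The members and gene lists were chosen with earlier results of these data known. Named genes were all 10 members, the 3 smallest p of each pathway list in vehicle against healthy, and the 2 smallest called in zalfermin against vehicle (the 1 smallest where none was called). Called genes against a list's majority were named where 3 or fewer, and the nearest 3 genes by likeness. Pfkfb3, Vegfa, Tfrc, Kdr, Cxcl12, Cdh5, Eng, Esam, Slc5a12, Col1a1, Col1a2, Col3a1, Nt5e and Wt1 were named after their values were seen. A few genes the rule names are not reported here. Promoter sequences are from RefSeq on GRCm38.p6.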

Additional observations from a re-analysis of the deposited data

Results flagged for a closer look

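A library far from the rest of its group was found in 10 of 168 groups of values tested, where chance gives about 8.4. Among the pathway genes, Hif1a of vehicle replicate 6 stood at 60.9 CPM, below the other vehicle libraries at 132 to 166 CPM. The log2 ratio of Hif1a to Epas1 in the same library was -1.35, against -0.64 to -0.22 in the others. Hif3a of zalfermin replicate 2 stood at 5.49 CPM, above the others at 1.32 to 2.69 CPM. The log2 ratio of Egln3 to Egln1 in vehicle replicate 5 was -2.25, against -1.88 to -1.69 in the other vehicle libraries. Optn, of the mitophagy list, was at 24.9 CPM in zalfermin replicate 8, against 29.7 to 32.9 CPM in the others.

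The other 5 were cell markers. Col1a1 was at 1244 CPM in vehicle replicate 7, against 560.0 to 799 CPM in the other vehicle libraries, and Nt5e at 280.3 CPM in vehicle replicate 4, against 176 to 214 CPM. Cd3e was at 3.56 CPM in zalfermin replicate 6, against 0.988 to 1.32 CPM. Slc5a12 was at 208 CPM in healthy replicate 2, against 277 to 289.7 CPM, and Umod was at 6666.5 CPM in the same library, against 5844 to 5909 CPM in the other healthy libraries.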

How the results depend on the processing

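No paired analysis was possible because the labels number no replicates and their order ties no samples together. With vehicle over healthy, RLE factors and DESeq2 each gave log2 values of 0.27 for Epas1, 0.22 for Arnt, -0.019 for Vhl and -0.016 for Ankrd37, and 0 genes of the 10 higher against 2. Library totals only gave 0.60 for Hif1a, 0.48 for Vhl, 0.080 for Egln2 and 0.31 for Egln3, 4 of the 10 higher, and 9373 higher and 2344 lower over all genes against 5799 and 4588. Voom gave 0.31 for Hif1a, and a fit of these groups alone 0.30 for Arnt and 1 gene higher. With zalfermin over vehicle, Hif3a stood at 1.35 with RLE factors, 1.34 with upper-quartile factors, 1.33 with library totals only and 1.36 in the fit of these groups alone, each leaving 1 of the 10 higher, and voom gave 0.074 for Egln2. Over all genes 139 were higher and 151 lower, against 82 higher with library totals only, 260 and 342 with DESeq2 and 502 and 646 with voom. With zalfermin over healthy, RLE factors gave 0.38 for Hif1a, 0.19 for Epas1, -0.0074 for Egln3 and 2 genes higher against 4. DESeq2 gave 0.19 for Epas1 and -0.0074 for Egln3, voom -0.026 for Egln3, no filter 0.29 and the fit of these groups alone 0.22 for Epas1. Library totals only gave 0.31 for Vhl, -0.042 for Egln2, 0.48 for Egln3, and 9451 higher and 2351 lower over all genes against 5976 and 4322. The difference between medians gave -0.35 for Egln1 over Egln2, 0.75 for Egln3 over Egln1 and -1.04 for Bnip3 over Ankrd37, which ended these 3 calls. The cause was not tested.

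Leaving out each library in turn gave, for vehicle over healthy, 0.10 to 0.26 for Hif1a, 0.26 to 0.44 for Epas1, 0.23 to 0.37 for Arnt, -0.50 to -0.29 for Egln2, -0.084 to 0.14 for Ankrd37 and 0 to 3 genes higher. For zalfermin over vehicle it gave 1.07 to 1.503 for Hif3a, 0.32 to 0.39 for Bnip3, -0.15 to 0.00075 for Egln2, -0.12 to 0.25 for Ankrd37, 0 to 2 of the 10 higher, and 71 to 242 higher and 73 to 275 lower over all genes, both highest without vehicle replicate 6. For zalfermin over healthy it gave 0.39 to 0.55 for Hif1a, 0.19 to 0.38 for Epas1, -0.016 to 0.17 for Egln3, -0.060 to 0.26 for Ankrd37 and 2 to 4 higher. Ratios of vehicle over healthy ran from -0.47 to -0.35 for Egln1 over Egln2, 0.63 to 0.74 for Egln3 over Egln1, 0.21 to 0.33 for Egln3 over Egln2 and -1.15 to -0.85 for Bnip3 over Ankrd37.

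Some list genes changed sign. With vehicle over healthy, library totals only gave 0.23 for Siah2, 0.045 for Nphs1, 0.077 for Esam and 0.42 for Wt1, and Wt1 stood at 0.044 with upper-quartile factors, 0.12 with voom, 0.0074 with no filter and -0.054 to 0.053 with 1 library left out. With zalfermin over vehicle, voom gave 0.031 for Mcm7. Edn1 stood at -0.0041 with upper-quartile factors and -0.0076 with library totals only. With 1 library left out the ranges were -0.037 to 0.082 for Edn1, -0.0079 to 0.11 for Pink1, -0.0077 to 0.11 for Umod, -0.018 to 0.076 for Vegfa and -0.14 to 0.14 for Cxcl12. With zalfermin over healthy, library totals only gave 0.30 for Nphs1, which ran from -0.16 to 0.016 with 1 library left out.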
